A study of Rattus norvegicus with 22 samples.

Results

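Adult neurogenesis genes were followed in the hippocampus of 14 rats after lateral fluid percussion (LFP), a model of traumatic brain injury (TBI) in which a pulse of fluid strikes the exposed dura. The set was named from general knowledge of neural progenitors and immature neurons, with earlier results of these data known. It held 9 genes, Sox2, Sox4, Sox11, Neurod1, Eomes, Dcx, Dpysl3, Tubb3 and Calb2. Of these, 8 were analysed here, out of 17172 genes in the count table, and all 8 passed the filter on low counts. Eomes (Tbr2), the transcription factor of intermediate progenitors, was not analysed here. All rats were adult male Sprague-Dawley rats with a craniectomy under isoflurane anesthesia over the right hemisphere. The sham rats had the same surgery without the fluid pulse. RNA-seq was performed on bulk ipsilateral hippocampus of 2 sham rats and 4 TBI rats 1 day after surgery, and of 4 sham rats and 4 TBI rats 14 days after surgery. Each library came from 1 rat, no rat was sampled at both days, and the whole hippocampus was taken rather than the dentate gyrus alone.

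The adult rodent hippocampus keeps making neurons in the subgranular zone of the dentate gyrus. Radial glia-like stem cells, which carry Sox2 together with the filament genes Nes, Gfap and Vim, give rise to dividing intermediate progenitors. These become neuroblasts and then immature granule neurons, which mature and join the granule cell layer. SOX2 keeps stem cells undifferentiated, EOMES marks the intermediate progenitor, and NEUROD1, a basic helix-loop-helix factor that binds E-boxes, drives the survival and maturation of the newborn neuron. SOX4 and SOX11 are the SoxC factors that switch on neuronal genes in the neuroblast. DCX (doublecortin) and DPYSL3 (CRMP4) bind the cytoskeleton of the migrating neuroblast, TUBB3 is the neuronal class III beta-tubulin, and CALB2 (calretinin) is a calcium-binding protein that the young granule neuron carries for a short time. None of these genes belongs to newborn cells alone. Astrocytes also express Sox2, mature granule neurons Neurod1, nearly all neurons Tubb3, and calretinin interneurons and Cajal-Retzius cells Calb2. In bulk tissue, fewer cells of a type and less RNA per cell cannot be told apart.

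The promoters of 4 of these genes are shown because SoxC factors are known to act on neuronal genes such as Dcx and Tubb3, whereas NEUROD1 binds E-boxes. RefSeq (build GRCr8) gave a window from 250 bases before to 50 bases after the gene start for 7 of the 9 genes. The search covered both strands for an E-box (CANNTG) and for a SOX motif (ACAANG), and both are in capitals. No window shown held both motifs. Positions count back from the gene start.
Dcx, chrX:112304112-112304411, minus strand: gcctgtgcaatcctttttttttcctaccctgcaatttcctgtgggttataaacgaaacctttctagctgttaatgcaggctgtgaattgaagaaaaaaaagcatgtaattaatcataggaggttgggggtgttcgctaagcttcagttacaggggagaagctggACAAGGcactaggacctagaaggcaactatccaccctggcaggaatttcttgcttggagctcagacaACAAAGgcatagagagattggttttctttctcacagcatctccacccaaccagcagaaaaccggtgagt
Tubb3, chr19:68365437-68365736, plus strand: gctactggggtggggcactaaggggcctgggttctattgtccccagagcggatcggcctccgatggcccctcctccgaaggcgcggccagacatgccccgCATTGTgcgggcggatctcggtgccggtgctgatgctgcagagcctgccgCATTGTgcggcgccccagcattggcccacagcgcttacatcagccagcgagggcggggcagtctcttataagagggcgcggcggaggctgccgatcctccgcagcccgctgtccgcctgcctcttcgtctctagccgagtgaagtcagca
Neurod1, chr3:84770405-84770704, minus strand: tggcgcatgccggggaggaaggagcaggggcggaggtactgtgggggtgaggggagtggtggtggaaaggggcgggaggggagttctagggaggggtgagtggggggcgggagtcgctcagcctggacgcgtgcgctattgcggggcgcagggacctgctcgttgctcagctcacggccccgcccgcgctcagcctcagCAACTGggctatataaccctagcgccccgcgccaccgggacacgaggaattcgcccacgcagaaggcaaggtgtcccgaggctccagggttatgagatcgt
Sox2, chr2:119464881-119465180, plus strand: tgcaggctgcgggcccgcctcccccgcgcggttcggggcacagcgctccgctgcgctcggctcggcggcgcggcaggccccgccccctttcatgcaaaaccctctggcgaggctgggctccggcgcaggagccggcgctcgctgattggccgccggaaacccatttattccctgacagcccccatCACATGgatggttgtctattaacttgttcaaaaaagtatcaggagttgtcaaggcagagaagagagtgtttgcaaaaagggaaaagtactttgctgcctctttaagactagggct
The Dcx window held 2 SOX matches, at -86 and -19, and no E-box. The Tubb3 window likewise held 2 SOX matches, at -150 and -100, and no E-box. The Neurod1 window held 1 E-box at -51 and the Sox2 window 1 E-box at -65, both without a SOX match. Of the windows not shown, Sox11 held 2 E-boxes, the pair of Dpysl3 windows 1 and 2, and Eomes 0. None of these held a SOX match, although Dpysl3 is also a neuronal cytoskeletal gene. Among all 33469 promoters of the same length, 42.1% held a SOX match and 72.1% an E-box, so that either motif is common in windows of this size. The windows also differed in base composition, with 45.0% G and C in Dcx, 60.7% in Sox2, 67.3% in Tubb3 and 68.0% in Neurod1, against a median of 51.7% over all promoters. A match is a run of letters and not a shown binding site, and no binding of these factors was measured.

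Total counts ranged from 15065540 to 23743703 per library. Levels are given as CPM (counts scaled to a common library size), scaled with TMM factors, which correct library size for differences in composition. CPM is not corrected for gene length, so levels are compared between groups of rats and not between genes. A gene was called changed when its adjusted p, over 12875 tested genes, was under 0.05. Choroid plexus markers, from a tissue inside the adjoining ventricle, set 3 libraries apart. Their summed level was 11185 CPM in sham day 1 replicate 1, 8737 CPM in TBI day 14 replicate 3 and 2082 CPM in TBI day 14 replicate 2, against 123 to 246 CPM in the other 11 libraries, and Otx2 was at 0 counts in all libraries. Mature neuron markers summed to 5955 CPM in TBI day 1 replicate 1, the lowest of the 14, against 10008 to 10736 CPM in the other TBI day 1 rats. That library had the highest sums of its group for oligodendrocyte markers (16036 against 4393 to 9420 CPM), oligodendrocyte precursor markers (3296 against 1862 to 2327 CPM) and endothelial markers (1123 against 577 to 821 CPM). Neuron markers were detected in every library. With 2 sham rats at day 1, each of them weighs heavily on that comparison, and values without each are given beside the results where they matter.

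At day 1, Tubb3 and Calb2 were lower after TBI than in sham rats, and no gene of the set was higher past the threshold with edgeR, DESeq2 or limma-voom (1, Sox2, at an unadjusted p under 0.05). The 2 lower genes of 8 tested stand beside 7.93% of all tested genes called lower, and the 0 higher genes beside 11.2% called higher. The median log2 fold change of the 8 genes was -0.31, against -0.02 over all tested genes. The TBI and sham rats did not overlap at all in 3 genes, with Sox2 higher and Calb2 and Tubb3 lower, where 30.8% of all tested genes showed such a gap in either direction.

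**Figure D1:**
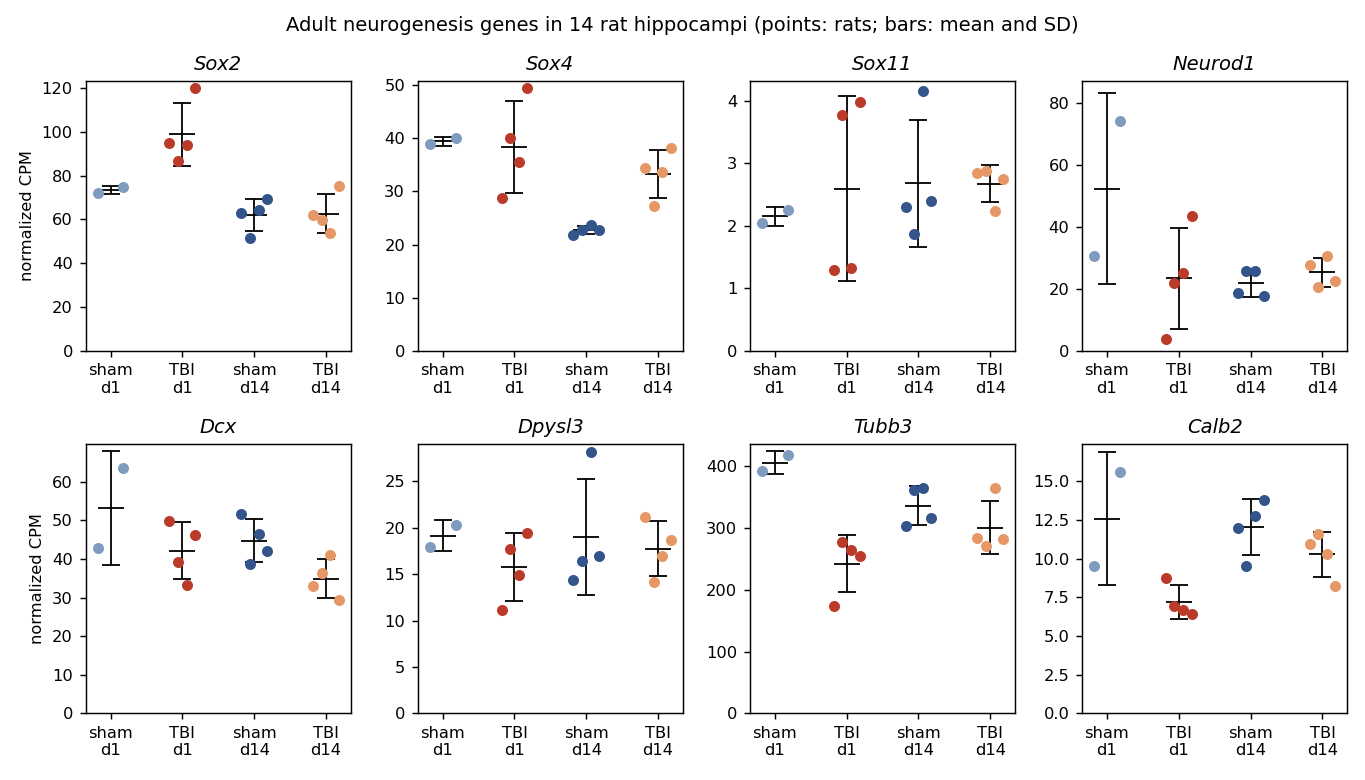
Normalized CPM of 8 adult neurogenesis genes in each of 14 rats, with 1 panel per gene, a linear axis from 0, and bars for the mean and SD of each group. The 4 TBI day 1 rats lie below both sham day 1 rats in Tubb3 and Calb2 and above them in Sox2, and the 4 TBI day 14 rats lie above the 4 sham day 14 rats in Sox4.

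Tubb3, the neuronal tubulin, stood at 392 and 418 CPM in the sham day 1 rats and at 174, 276, 265 and 254 CPM in the TBI day 1 rats. All injured rats lay well below both sham rats, and replicate 1 was the lowest. The group means were 405 ± 18.3 CPM (SD, n = 2) and 242 ± 46.3 CPM (SD, n = 4). The fitted level fell by 40.2%, or by 0.74 on the log2 scale (SE 0.18, adjusted p = 0.00963). Without sham day 1 replicate 2 the log2 fold change was -0.70 and no longer passed (adjusted p = 0.0841). A fit to the 6 day 1 rats alone gave -0.72 (adjusted p = 0.102).

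Calb2, calretinin, stood at 9.54 and 15.6 CPM in the sham day 1 rats, which lay far apart. In the TBI day 1 rats it was 8.77, 6.94, 6.69 and 6.40 CPM, all under the lower sham rat, although replicate 1 came close to it. The means were 12.6 ± 4.31 CPM (SD, n = 2) and 7.20 ± 1.07 CPM (SD, n = 4), and Calb2 fell by 0.81 on the log2 scale (SE 0.22, adjusted p = 0.0214). This call rested on sham day 1 replicate 2, since without that rat the log2 fold change was -0.41 (adjusted p = 0.412). It was also lost with the replicate number as a block (-0.77, adjusted p = 0.058) and in the fit to day 1 rats alone (adjusted p = 0.188).

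Some markers of other cells were lower at day 1 as well. Of 12 mature neuron markers, 0 were called higher and 3 lower at day 1 (Rbfox3, Slc17a7 and Thy1), and the list median was -0.71 on the log2 scale. Their summed level was 13508 and 16099 CPM in sham and 5955 to 10736 CPM in TBI rats. Of 11 tested interneuron markers, 0 were called higher and 5 lower (Dlx1, Gad1, Lhx6, Pvalb and Slc32a1). Their sum was 882 to 978 CPM in sham and 592 to 816 CPM in TBI rats, and Npy was at 0 counts in all 14 libraries. For Cajal-Retzius cells, 4 markers in the table summed to 132 to 151 CPM in sham and 61.9 to 107 CPM in TBI rats, with Lhx5 at 0 counts in every day 1 library. Of the 2 tested, 0 were called higher and Reln was called lower. Oligodendrocyte markers fell too, with 0 of 10 called higher and 5 lower, a list median of -0.79, and sums of 11517 and 15531 CPM in sham and 4393 to 16036 CPM in TBI rats. The sum of 16036 CPM came from TBI day 1 replicate 1, the rat with the lowest Tubb3. Not all lists fell, with medians of 0.03 for oligodendrocyte precursors, 0.67 for endothelial cells and 0.46 for pericytes and fibroblasts. The part of these cells in the levels of Tubb3 and Calb2 was not tested.

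Sox2, the stem cell factor, stood at 72.3 and 74.7 CPM in the sham day 1 rats and at 94.8, 86.7, 93.9 and 120 CPM in the TBI day 1 rats. Every injured rat was above both sham rats. The means were 73.5 ± 1.72 CPM (SD, n = 2) and 98.8 ± 14.5 CPM (SD, n = 4), but the log2 fold change of 0.43 (SE 0.17) did not pass over all genes (adjusted p = 0.0855). With all 6 sham rats as the baseline it was 0.59 and passed (adjusted p = 0.00307). That baseline mixes days, since 4 of these rats were sham day 14 rats, with a mean Sox2 of 62.1 ± 7.42 CPM (SD, n = 4). Over all tested genes it called 2292 higher and 2032 lower at day 1, in place of 1437 and 1021. Astrocyte markers, several of which are shared with stem cells, summed to 8720 and 13678 CPM in sham and 15024 to 22088 CPM in TBI rats at day 1, with 2 of 11 called higher (Gfap and Fgfr3) and 2 lower and a list median of -0.31. Gfap carried this sum, since the other 10 markers summed to 7768 and 12121 CPM in sham and 7347 to 9442 CPM in TBI rats. Whether Sox2 came from astrocytes or stem cells was not tested.

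Neurod1 had the widest spread of the set at day 1. It stood at 30.6 and 74.0 CPM in the sham rats and at 3.63, 21.8, 24.9 and 43.4 CPM in the TBI rats, so that the groups overlapped. The means were 52.3 ± 30.8 CPM (SD, n = 2) and 23.4 ± 16.3 CPM (SD, n = 4), and the fitted change of -1.16 on the log2 scale (SE 0.55) did not pass (adjusted p = 0.152). The lowest value came from TBI day 1 replicate 1, the rat that was also lowest in mature neuron markers. The value ran from -1.66 without sham day 1 replicate 1 to -0.38 without sham day 1 replicate 2, and passed in 1 of the 14 fits that left out a rat, without TBI day 1 replicate 4 (-1.64, adjusted p = 0.0391).

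Dcx, doublecortin, stood at 42.7 and 63.6 CPM in the sham day 1 rats and at 49.9, 39.2, 33.4 and 46.3 CPM in the TBI day 1 rats. The groups overlapped, and the log2 fold change of -0.33 (SE 0.20) did not pass (adjusted p = 0.248). It was -0.02 without sham day 1 replicate 2 and -0.59 without sham day 1 replicate 1. Dpysl3, the other cytoskeletal partner, ranged from 17.9 to 20.3 CPM in sham and from 11.1 to 19.4 CPM in TBI rats (log2 fold change -0.28, SE 0.27, adjusted p = 0.491).

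The SoxC factors showed no call at day 1. Sox4 stood at 38.9 and 40.1 CPM in the sham rats and at 28.8, 40.1, 35.5 and 49.4 CPM in the TBI rats, which lay on both sides of the sham rats (log2 fold change -0.04, SE 0.18, adjusted p = 0.910). Sox11, which maintains the young neuronal state together with Sox4, had low counts, with 25 to 93 counts per library at day 1. Its level was 2.05 and 2.26 CPM in sham and 1.30, 3.77, 1.33 and 3.98 CPM in TBI rats. The TBI rats fell into a low and a high pair around the sham values (log2 fold change 0.27, SE 0.46, adjusted p = 0.711).

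**Figure D2:**
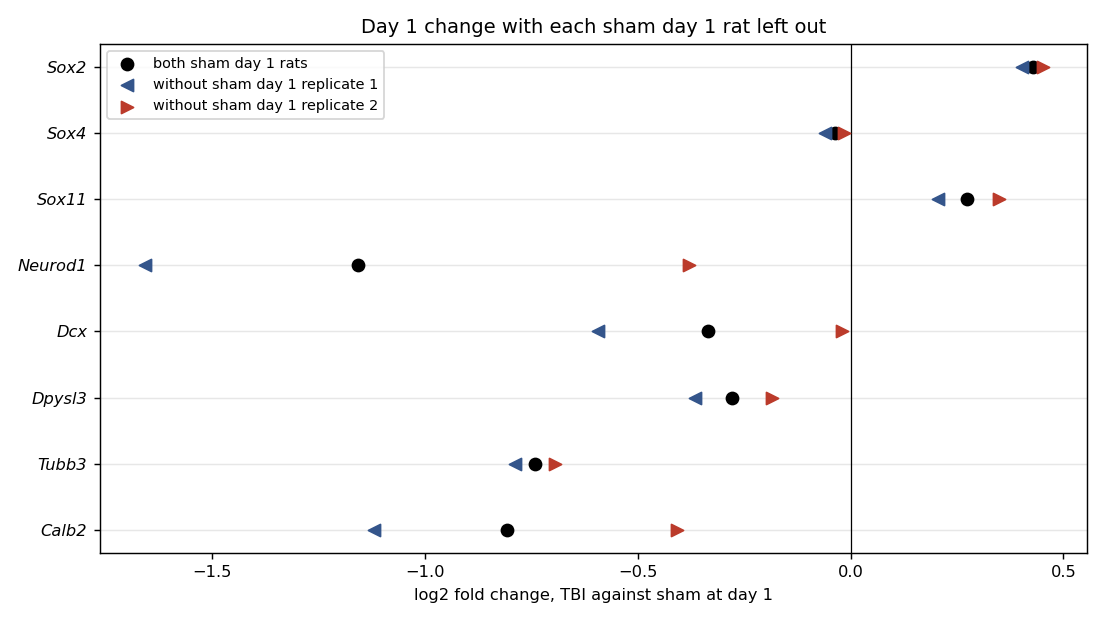
Log2 fold change of TBI against sham at day 1 with both sham day 1 rats (circles) and with each left out (triangles), for 8 genes. Calb2, Dcx and Neurod1 move widely with the rat left out, Calb2 from -1.12 to -0.41, whereas Sox2, Sox4 and Tubb3 move by little.

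At day 14, none of the 8 genes passed in the edgeR fit. The counts of 0 higher and 0 lower stand beside 4.07% of all tested genes called higher and 0.365% called lower, and 2 genes, Sox4 and Dcx, had an unadjusted p under 0.05. DESeq2 called 1 gene, Sox4, and limma-voom 0. The median log2 fold change of the 8 genes was -0.05, against -0.03 over all tested genes.

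Sox4 was the gene nearest to a call at day 14. It stood at 21.8, 22.8, 23.7 and 22.7 CPM in the sham rats, which lay close together. In the TBI rats it was 34.4, 27.2, 33.6 and 38.2 CPM, all above all sham rats, where 15.0% of tested genes had groups that did not overlap. The means were 22.7 ± 0.790 CPM and 33.4 ± 4.53 CPM (SD, n = 4 each), and the change was 0.55 on the log2 scale (SE 0.15, unadjusted p = 0.00249, adjusted p = 0.0544). It passed with DESeq2 (adjusted p = 0.0174), in the fit to day 14 rats alone (0.59, adjusted p = 0.00493), and with at least 10 counts in every sample (adjusted p = 0.0372). Of the 14 fits that left out a rat, it passed in only 3. These were the fits without TBI day 14 replicate 2 (0.64, adjusted p = 0.0338) and without TBI day 1 replicate 1 or replicate 4. Sox4 is not restricted to young neurons. Microglial markers were called higher in 11 of 12 genes at day 14, with a summed level of 1313 to 2307 CPM in TBI and 591 to 755 CPM in sham rats, and their part in the Sox4 level was not tested.

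Dcx stood at 51.6, 38.7, 46.5 and 42.2 CPM in the sham day 14 rats and at 32.9, 36.4, 41.1 and 29.2 CPM in the TBI day 14 rats. The TBI values lay lower on the whole but overlapped with the sham values. The means were 44.7 ± 5.56 CPM and 34.9 ± 5.05 CPM (SD, n = 4 each), and the log2 fold change of -0.36 (SE 0.16) had an unadjusted p of 0.0464 and an adjusted p of 0.362. Leaving out each rat in turn kept it between -0.43 and -0.28.

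The other 6 genes had log2 fold changes between -0.23 and 0.21 at day 14. Tubb3 stood at 303, 360, 364 and 316 CPM in sham and at 283, 271, 364 and 282 CPM in TBI rats, with TBI replicate 3 far above the other injured rats (log2 fold change -0.16, adjusted p = 0.775). Calb2 stood at 11.99, 9.55, 12.8 and 13.8 CPM in sham and at 10.9, 11.6, 10.3 and 8.24 CPM in TBI rats, which overlapped (log2 fold change -0.23, adjusted p = 0.742). Sox2 ranged from 51.7 to 69.1 CPM in sham and from 53.9 to 75.3 CPM in TBI rats (log2 fold change 0.01, SE 0.13, adjusted p = 0.987). Neurod1 ranged from 17.5 to 25.7 CPM in sham and from 20.5 to 30.5 CPM in TBI rats (adjusted p = 0.935). Sox11, at 1.86 to 4.16 CPM in sham and 2.24 to 2.87 CPM in TBI rats, and Dpysl3, at 14.4 to 28.2 CPM in sham and 14.2 to 21.2 CPM in TBI rats, likewise overlapped.

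**Figure D3:**
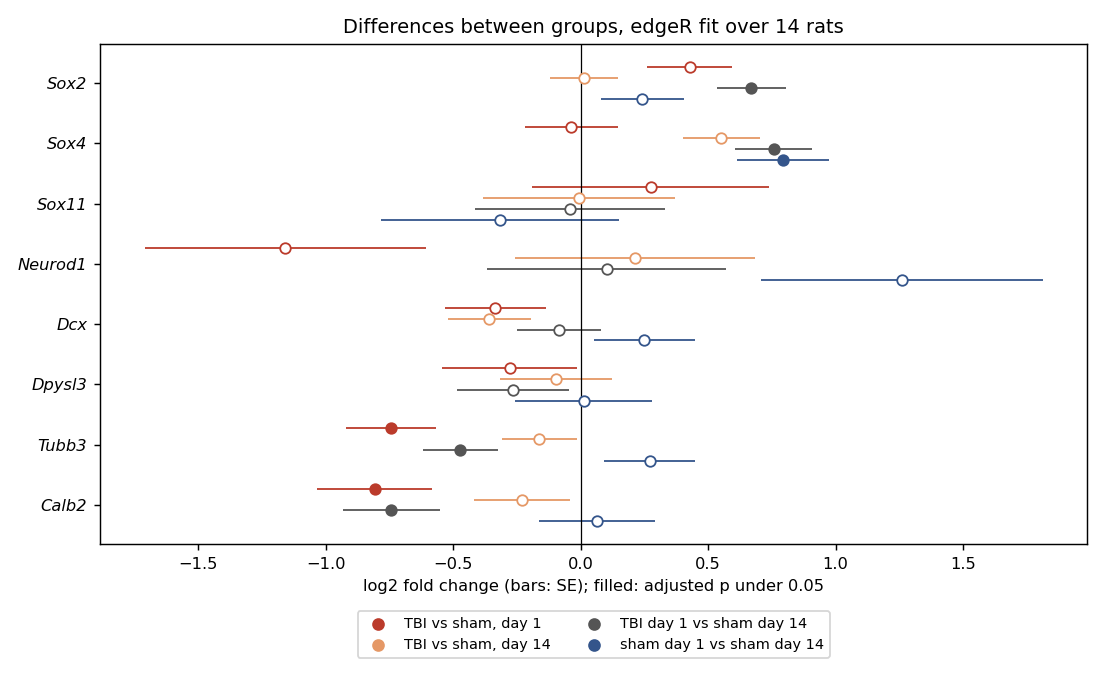
Log2 fold change with its SE for 8 genes in 4 comparisons from the edgeR fit over 14 rats, with filled points where the adjusted p was under 0.05. Tubb3 and Calb2 are filled to the left of 0 in the comparisons of TBI day 1 with either sham group, Sox2 and Sox4 are filled to the right of 0 against sham day 14, and no gene is filled for TBI against sham at day 14.

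The difference between the injury effects at the 2 days was tested directly. The count was 0 of 8 genes in the edgeR fit, beside 3.68% of all tested genes called, and 2 genes had an unadjusted p under 0.05, Tubb3 (difference -0.58, unadjusted p = 0.0247, adjusted p = 0.183) and Sox4 (difference -0.59, unadjusted p = 0.0251, adjusted p = 0.184). The 0 count held with limma-voom and DESeq2. A call at day 1 without one at day 14 was therefore not shown to be a difference between days for Tubb3 or Calb2 (difference -0.58, adjusted p = 0.301).

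The sham day 14 rats served as a second reference for TBI day 1, because the study took them as the baseline after recovery from surgery. Against them, Sox2 rose by 0.67 on the log2 scale (SE 0.14, adjusted p = 0.00103) and Sox4 by 0.76 (SE 0.15, adjusted p = 0.000976). Calb2 fell by 0.74 (SE 0.19, adjusted p = 0.00527) and Tubb3 fell by 0.47 (SE 0.15, adjusted p = 0.0175). These 2 higher and 2 lower genes stand beside 25% of all tested genes called higher and 21% called lower, and the groups were apart in the same 4 genes, where 40.0% of tested genes were apart. All 4 calls held in each of the 14 fits that left out a rat. Dcx (-0.08, adjusted p = 0.702), Neurod1 (0.10, adjusted p = 0.875), Dpysl3 (-0.27, adjusted p = 0.341) and Sox11 (-0.04, adjusted p = 0.936) were not called.

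The sham groups themselves differed, which bears on that reference. Sox4 was called higher in the sham day 1 rats, by 73.4% over sham day 14 (log2 fold change 0.79, SE 0.18, adjusted p = 0.00946). It was the 1 gene of 8 called higher, with 0 lower, beside 11.3% of tested genes called higher and 7.88% lower. It was not called without sham day 1 replicate 2 (0.77, adjusted p = 0.058). The sham day 1 rats lay above all sham day 14 rats in Sox2, Neurod1, Sox4 and Tubb3, where 41.5% of tested genes had groups apart in either direction. Neurod1 had the largest difference, 1.26 on the log2 scale (SE 0.55, adjusted p = 0.121), which ran from 0.48 without sham day 1 replicate 2 to 1.76 without sham day 1 replicate 1. The higher Sox4 in TBI day 1 and in sham day 1 was thus measured against the same 4 sham day 14 rats.

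The order of the groups varied between genes. Sox2 was highest in TBI day 1, apart from sham day 1, which overlapped with TBI day 14 below it, as TBI day 14 did with sham day 14. Sox4 fell in the order sham day 1, TBI day 1, TBI day 14 and sham day 14, and only sham day 14 was apart from its neighbour. Tubb3 was highest in sham day 1, apart from sham day 14, followed by TBI day 14 and TBI day 1 with overlapping ranges. Neurod1 was highest in sham day 1, apart from the other groups except TBI day 1, which it overlapped. Dcx ran from sham day 1 at 53.2 ± 14.7 CPM over sham day 14 and TBI day 1 to TBI day 14, and each group overlapped with its neighbours. Calb2 and Dpysl3 fell in the order sham day 1, sham day 14, TBI day 14 and TBI day 1, with neighbours overlapping, and the means of Sox11 lay between 2.15 and 2.68 CPM, also overlapping.

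Other genes of the neurogenic lineage were taken from lists of stages, 90 genes in all, of which 83 were in the table and 82 were tested. At day 1, 14 were called higher, 17 lower and 51 not, beside 11.2% of all tested genes called higher and 7.93% lower. Leaving out sham day 1 replicate 2 left 1 sham rat at day 1. Fewer of these genes were then called, as were fewer of all tested genes. At day 14, 3 were called higher and 1 lower, beside 4.07% and 0.365% of all tested genes, so the share called higher was near that of all genes. No stage was tested against another.

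Among 16 tested neural stem cell genes, 5 were higher and 2 lower at day 1. Nes, the intermediate filament nestin of stem cells and reactive glia, went from 2.35 ± 1.63 CPM in sham to 26.7 ± 5.77 CPM in TBI rats (log2 fold change 3.52, SE 0.39, adjusted p = 3.47e-05). The glial filaments Gfap (3.10, SE 0.32, adjusted p = 2.02e-05) and Vim (3.02, SE 0.57, adjusted p = 0.00223) rose with it, as did Hopx and Notch1, both of which were not called without sham day 1 replicate 2. At day 14, Gfap (2.06, SE 0.23, adjusted p = 7.26e-05) and Vim (2.12, SE 0.41, adjusted p = 0.00538) were still higher, and Nes was not called (-0.07, adjusted p = 0.971). The difference between days passed for Nes (3.59, adjusted p = 0.00103). Nes was lower in sham day 1 than in sham day 14 (6.43 ± 1.75 CPM, log2 fold change -1.46, adjusted p = 0.0144), which enters that difference, and TBI day 1 was 2.05 above sham day 14 on the log2 scale (adjusted p = 3.08e-05). Gfap is also an astrocyte marker, and the filaments mark reactive astrocytes as well as stem cells.

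Dividing cell genes were called higher in 5 of 7 at day 1, beside 11.2% of all tested genes, and the list median was 2.13 on the log2 scale. Their summed level was 111 and 144 CPM in sham and 159 to 251 CPM in TBI rats. The uncalled genes were Ccnb1 and Ccnd2. With a rat left out, Ccnb1 ranged from 0.49 to 1.19 and Ccnd2 from -0.78 to -0.16. Cdk1 had a low mean log2 CPM of 0.59 over the 14 libraries. Cdk1, the mitotic kinase (3.77, SE 0.69, adjusted p = 0.00185), Top2a, the topoisomerase of replicating cells (3.07, SE 0.61, adjusted p = 0.00321) and Mcm2, a subunit of the replicative helicase (2.13, SE 0.25, adjusted p = 5.39e-05) led them, with Mki67 and Pcna also higher. Top2a was not called without sham day 1 replicate 2, nor Mki67 without sham day 1 replicate 1. Mki67 was lower in sham day 1 (4.15 ± 1.83 CPM) than in sham day 14 (12.4 ± 1.26 CPM, adjusted p = 0.0442), and TBI day 1 did not pass against sham day 14 (log2 fold change 0.55, adjusted p = 0.253). At day 14, 0 of the 7 were called with edgeR, DESeq2 or limma-voom, and 1, Mcm2, had an unadjusted p under 0.05 (log2 fold change 0.42, adjusted p = 0.345). Blood leukocyte markers rose at the same time, with 6 of 8 tested called higher at day 1 and a summed level of 294 to 555 CPM in TBI against 37.7 to 69.3 CPM in sham rats. Microglial markers were called higher in 5 and lower in 2 of 12. Which cells divided was not tested.

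Of 5 tested progenitor and neuroblast genes, Igfbpl1, a marker of neuroblasts, was lower (-2.28, SE 0.57, adjusted p = 0.0125) and 0 were higher, and the Igfbpl1 call was lost without sham day 1 replicate 1. Of 16 immature neuron genes, 1 was higher and 4 lower. Tmsb10, an actin-binding peptide, rose (1.01, SE 0.26, adjusted p = 0.0145). The microtubule protein Map1b (-1.06, SE 0.32, adjusted p = 0.0341) and Nrep (-0.89, SE 0.20, adjusted p = 0.00716) fell, as did Ncam1 and Stmn1. Tmsb10, Map1b, Ncam1 and Stmn1 were not called without sham day 1 replicate 2, Map1b also not without TBI day 1 replicate 1, 2 or 3, and Nrep and Stmn1 not without sham day 1 replicate 1. At day 14, edgeR called 0 genes of either list. None of the progenitor and neuroblast genes had an unadjusted p under 0.05, and 3 immature neuron genes did (Gap43, St8sia2 and Tmsb10), of which DESeq2 called 1, Tmsb10.

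Dentate granule neuron genes were lower in 5 of 8 at day 1, with 0 higher and a list median of -1.33 on the log2 scale. The synaptic organizers C1ql2 (-2.20, SE 0.57, adjusted p = 0.0157) and C1ql3 (-2.11, SE 0.41, adjusted p = 0.00289) and the kinase-like gene Plk5 (-2.18, SE 0.28, adjusted p = 0.000129) fell, as did Prox1, the granule cell fate factor, and Neurod2. C1ql2, C1ql3, Prox1 and Neurod2 were not called without sham day 1 replicate 2. Prox1 was also not called without TBI day 1 replicate 3, and ranged from -2.33 to -0.39 with a rat left out. Plk5 was called in all 14 fits that left out a rat, although it was also lower in sham day 1 than in sham day 14 (28.3 ± 6.83 against 99.5 ± 29.3 CPM, adjusted p = 0.00282). The summed level of this list was 363 and 792 CPM in sham and 105 to 313 CPM in TBI rats at day 1, lowest in TBI day 1 replicate 1. At day 14 it was 483 to 643 CPM in sham and 506 to 591 CPM in TBI rats, with 0 of 8 called by edgeR, DESeq2 or limma-voom and 0 at an unadjusted p under 0.05. These markers moved with Neurod1 in TBI day 1 replicate 1, where both were lowest, and the number of granule neurons was not measured.

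Niche signals, the secreted factors and receptors that reach the stem cells, were called higher in 3 and lower in 5 of 30 at day 1, and the 3 higher are a share near the 11.2% of all tested genes. The chemokine receptor Cxcr4 (2.11, SE 0.46, adjusted p = 0.0054) and the growth factor Fgf2 (1.28, SE 0.35, adjusted p = 0.0206) rose, and the Cxcr4 ligand Cxcl12 fell (-1.05, SE 0.26, adjusted p = 0.0129). None of these 3 calls held without sham day 1 replicate 2, and Cxcr4 was not called in TBI day 1 against sham day 14 (0.64, adjusted p = 0.122). At day 14 the growth factor Igf1 was higher, at 12.8 ± 6.77 CPM in TBI against 2.23 ± 0.605 CPM in sham rats (log2 fold change 2.51, SE 0.38, adjusted p = 0.000691), and it was called in all 14 fits that left out a rat. Vegfa, the vascular growth factor, was lower (-0.65, SE 0.16, adjusted p = 0.0267) and was called in 9 of the 14 fits, not without sham day 14 replicate 1, 2 or 4 or TBI day 14 replicate 1 or 4. Igf1 is also made by microglia, whose markers rose at day 14.

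**Figure D4:**
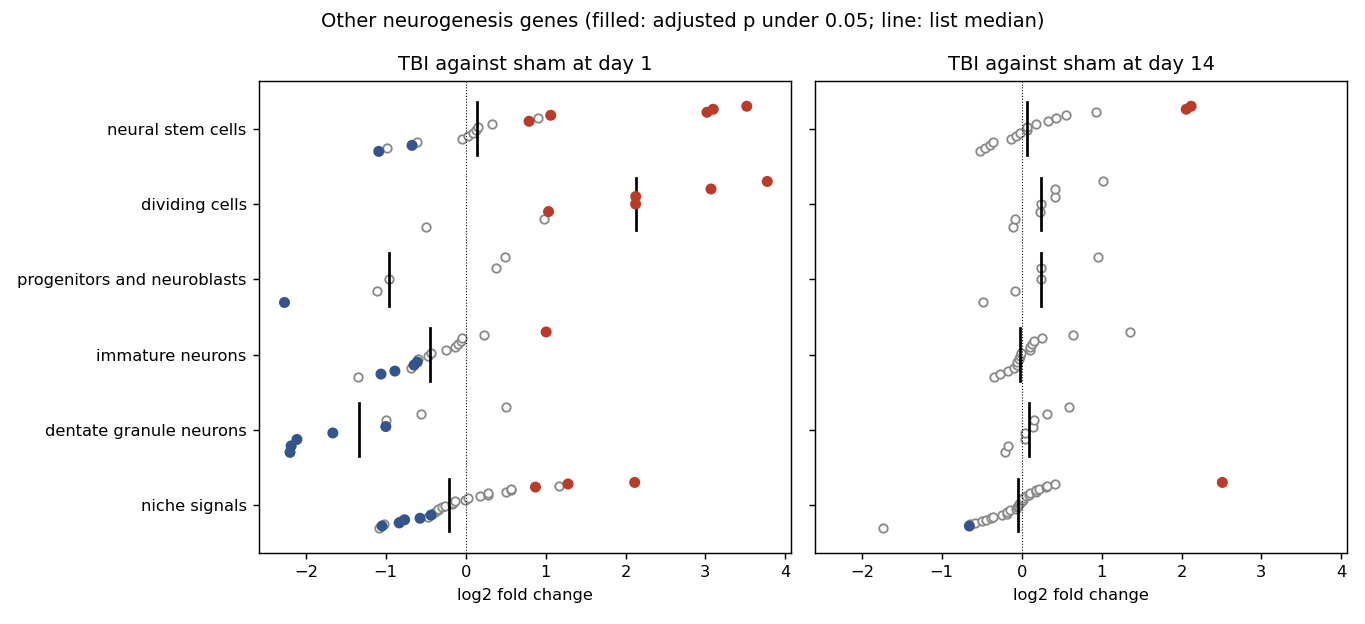
Log2 fold change of TBI against sham at day 1 (left) and day 14 (right) for the tested genes of 6 neurogenesis lists, with filled points where the adjusted p was under 0.05 and a line at each list's median. At day 1 most dividing cell genes lie to the right, with a median of 2.13, and most dentate granule neuron genes to the left, with a median of -1.33. At day 14 the 6 medians lie between -0.04 and 0.25.

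The genes whose levels were most like each gene of the set over the 14 libraries were found by Pearson correlation of log2 CPM, given as a description since the rats share groups and depth. Neurod1 was nearest to Wasf1 (r = 0.989), an actin regulator, and to Bhlhe22 (r = 0.972), a basic helix-loop-helix factor. Tubb3 was nearest to Tuba4a (r = 0.971), an alpha-tubulin, and Tsc22d1 (r = 0.940). Sox4 was nearest to Hk2 (r = 0.962), a hexokinase, and Tab2 (r = 0.933), and Sox2 to Cdc14a (r = 0.949) and Ctnnd1 (r = 0.930). Dpysl3 was nearest to Nudcd3 (r = 0.911) and Syt11 (r = 0.907). The likeness was weaker for Dcx, with Zfp280d (r = 0.879) and Mark1 (r = 0.877), for Calb2, with Zfhx2 (r = 0.879) and Gjd2 (r = 0.869), and for Sox11, with Ikzf2 (r = 0.849) and Cyp1b1 (r = 0.777). Ikzf2 and Cyp1b1 had low mean levels, 0.48 and 2.77 CPM, as did Sox11 itself. All these neighbours were picked as the highest correlations among the tested genes outside the set. Within the set the closest pair was Neurod1 and Tubb3 (r = 0.753), followed by Sox11 and Dpysl3 (r = 0.703), while Sox2 and Calb2 ran opposite (r = -0.627).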

How the data were processed

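Bulk ipsilateral hippocampus of 14 rats was profiled by stranded, polyA-selected RNA-seq with single-end reads. The authors aligned the reads to rn5 with STAR 2.4.2a, after FastQC 0.11.8, then used featureCounts 1.5.0 for reads per UCSC gene. The deposited values were whole-number counts without normalization, and the strand setting of the counting was not given in the sources used here. No column was left unused. Gene names include 25 of date form and 2 given more than 1 time.

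The test was the quasi-likelihood test of edgeR 4.0.16 (R 4.3.3) with TMM normalization, fitted to 14 samples with a mean for each group, after its default filter left 12875 genes. Two-sided p-values were adjusted over these genes (Benjamini-Hochberg) and called under 0.05. The SE of a log2 fold change was its size divided by the square root of the F statistic. Log2 CPM used a prior count of 2. Checked on simulated counts for the day 1 comparison over 12726 genes, the fit recovered 58% of 2-fold and 95% of 4-fold changes. At day 14 it recovered 83% and 98%. Changes were simulated only in genes above a floor of mean CPM that Sox11 did not reach. No change smaller than 2-fold was simulated, so recovery of such changes was not measured. Replicates differed by more than counting noise, with 12.8 to 165 for chi-squared per degree of freedom over pairs.

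The genes of the set and the lists were chosen with earlier results of these data known. Named genes are all those of the set, up to 3 called genes of each list and day with the largest change among those with a mean log2 CPM above 0, and the 2 tested genes most correlated with each gene of the set. Other list genes and cell type markers were named after their values were seen, and some genes counted in the lists are not reported here by name. Alternatives were limma-voom (limma 3.58.1), DESeq2 1.42.0, other factors and filters, a replicate block, other baselines and each rat left out. A fit without the 3 libraries with choroid plexus markers was added after seeing the data. Promoter windows were in GRCr8, whereas counts were on rn5, so no position was shared between them. H3K4me3 peak lists from day 1 rats were not used here, since no rn5 annotation was at hand to place the genes.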

Additional observations from a re-analysis of the deposited data

Results flagged for a closer look

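Each of the 8 genes was checked in the 3 groups of 4 rats, which gave 24 checks on the same rats. Of these, 1 held a sample set apart from the rest by its gap. That share is near the 1 in 20 that chance gives for a single check, although the 24 checks are not independent. This was Tubb3 in TBI day 14 replicate 3, at 364.1 CPM against 271 to 283 CPM in the other 3 rats, and that library also carried choroid plexus markers.

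Among the 26 genes tested for a difference between the injury effects at days 1 and 14, 6 passed in the edgeR fit, none of them in the set. The difference on the log2 scale, day 1 minus day 14, was 3.59 for Nes (adjusted p = 0.00103) and 1.71 for Mcm2 (adjusted p = 0.0081). It was -3.24 for Igfbpl1 (adjusted p = 0.0283), which ranged from 2.38 to 12.8 CPM among the TBI day 14 rats. It was -2.02 for Plk5 (adjusted p = 0.0083) and -2.15 for C1ql3 (adjusted p = 0.0423). It was -2.65 for Igf1 (adjusted p = 0.0192), which was higher at day 14 and not called at day 1 (-0.13, adjusted p = 0.857). Nes and Plk5 were also lower in sham day 1 than in sham day 14 (adjusted p = 0.0144 and 0.00282), which enters their difference.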

How the results depend on the processing

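With adjusted p under 0.01, the day 1 comparison called 1 gene of the set in place of 2 and 15 lineage genes in place of 31. Over all tested genes it called 788 higher and 299 lower, in place of 1437 and 1021. Fitting the compared groups alone gave 0 and 10 at day 1, 1 and 8 (in place of 0 and 4) at day 14, and 2 in place of 1 between sham groups. Over all tested genes that fit called 557 higher and 94 lower at day 1. At day 14 it called 903 and 205, in place of 524 and 47. Between sham groups it called 1387 and 1106, in place of 1450 and 1014. With the replicate number as a block, 1 gene was called at day 1 (Tubb3) and no other count moved by over 1.5 times. The numbers pair no rats by the labels, with 5 of 18 same-number pairs over a correlation of 0.1 (range -0.348 to 0.243) and 3 of 14 samples nearest to their own number. At day 14, DESeq2 called 1 gene of the set and 7 lineage genes, and at least 10 counts in every sample called 1, always Sox4. Over all tested genes DESeq2 called 674 higher and 119 lower at day 14, and the count filter 462 and 39.

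Leaving out 1 rat other than the sham day 1 rats gave 0 to 1 genes of the set and 3 to 5 lineage genes at day 14. Over all tested genes these fits called 375 to 569 higher and 21 to 84 lower there. At day 1 the counts were highest without TBI day 1 replicate 4, with 3 genes of the set and 36 lineage genes. Over all tested genes that fit called 1677 higher and 1467 lower. The day 1 counts fell furthest, over all tested genes too, without sham day 1 replicate 2, with 1 sham rat left. The count for the difference between days, 0, held in every alternative run, and that for TBI day 1 against sham day 14, 4, held except at an adjusted p under 0.01, where it was 3.

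Signs turned for some values that were uncalled in the edgeR fit over 14 rats, and the cause was not tested. With all 6 sham rats as baseline, Sox4 at day 1 was 0.45 and, at day 14, Sox2 was -0.071, Neurod1 -0.34 and Sox11 0.094. That baseline joins the sham groups, where sham day 1 was above sham day 14 by 0.79 for Sox4 and by 1.26 for Neurod1. Sox11 at day 14 was 0.035 with limma-voom, 0.011 with at least 10 counts and 0.022 in the compared groups alone. Without the choroid plexus libraries, at day 14 Sox11 was 0.080 and Dpysl3 0.089, and the difference for Dcx was -0.10. Neurod1 in TBI day 1 against sham day 14 was -0.30 with limma-voom and -0.093 with the block. Dpysl3 between sham groups was -0.018 with at least 10 counts.

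Leaving out 1 rat, values crossed 0 at day 1 for Sox4 (-0.18 to 0.080) and Sox11 (-0.0020 to 0.49), and at day 14 for Sox2 (-0.087 to 0.095), Sox11 (-0.15 to 0.29) and Dpysl3 (-0.21 to 0.16). They did so for the difference in Dcx (-0.24 to 0.34) and Sox11 (-0.016 to 0.50). For TBI day 1 against sham day 14 they did so in Dcx (-0.17 to 0.013), Neurod1 (-0.38 to 0.46) and Sox11 (-0.32 to 0.25), and between sham groups in Calb2 (-0.34 to 0.38), Dcx (-0.066 to 0.51) and Dpysl3 (-0.10 to 0.27).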
